A study of Mus musculus with 4 samples.

Results

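The genes described are the subunits of the transcription factor AP-1, namely the Fos family (Fos, Fosb, Fosl1 and Fosl2), the Jun family (Jun, Junb and Jund) and Batf, together with the zinc finger factor Egr1. They were chosen by gene symbol, and all 9 were found among the 54752 genes of the deposited tables. The tables hold FPKM, the number of sequenced fragments per kilobase of transcript, scaled to the size of the library, from total RNA of the epidermis of 4 C57BL/6 pups at postnatal day 0. Of these pups, 2 were Skiv2l fl/fl K14-Cre, named knockout pups hereafter, and 2 were Skiv2l ctl, named control pups. The keratin 14 promoter of the transgene drives Cre, and the study describes the deletion as specific to keratinocytes. Deletion by cell type was not measured in these libraries. Skiv2l encodes the helicase that feeds RNA to the cytoplasmic exosome. The study's controls were littermates with fl/fl or fl/+ Skiv2l alleles without Cre or fl/+ with K14-Cre, and which of these each control pup carried was not given per pup. The comparison asks whether the AP-1 subunits and Egr1 differ in transcript level when keratinocytes lack Skiv2l.

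AP-1 is a dimer of basic leucine zipper proteins. Jun proteins pair with each other or with Fos proteins, Fos proteins need a partner, and Batf pairs with Jun proteins and lacks a transactivation domain of its own. Most of these genes, like Egr1, are immediate early genes: growth factors, stress and wounding switch them on through MAP kinases without new protein synthesis, and their short-lived mRNAs are soon removed. In epidermis, AP-1 subunits are present in different layers and act on genes of proliferation, differentiation and the cornified envelope.

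Transcripts of Jun, Junb and Fosl1 were higher in knockout than in control epidermis, by 1.69, 2.22 and 2.003 times in mean FPKM, and Jund was lower, at 0.655 times the control mean. Fos, Fosb, Fosl2 and Egr1 did not pass the test. Fos differed several-fold between the pups of each genotype, and Fosb did so between the control pups only. Batf was near the lower limit of these libraries in every pup. Differences were tested with limma on log2(FPKM + 1) over 13609 protein-coding genes, those whose FPKM passed 0.5 in 1 or more libraries, with Benjamini-Hochberg adjustment, and a gene was called at an adjusted p under 0.05. Of the 8 tested members, 3 (37.5%) were called higher, against 8.99% of all tested genes, and 1 (12.5%) was called lower, against 25.4% of all tested genes. Calls in either direction made up 34.4% of all tested genes. All 8 had FPKM above 0.5 in all 4 libraries, so none entered the test through 1 genotype alone. Their median log2 fold change was 0.07, and that of all tested genes was -0.20. After scaling each library to a common median, 13.9% of all genes were called higher and 11.9% lower, and the median of all genes was -0.03.

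Both knockout pups were above both controls for 3 members and below both for 2, and the genotypes overlapped for 4, Batf included. Among all tested genes, both knockout pups were above both controls in 18.2% and below both in 55.3%. The smallest p that an exact permutation test can give for 2 against 2 pups is 0.333, so the tests rest on the spread shared across genes.

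**Figure D1:**
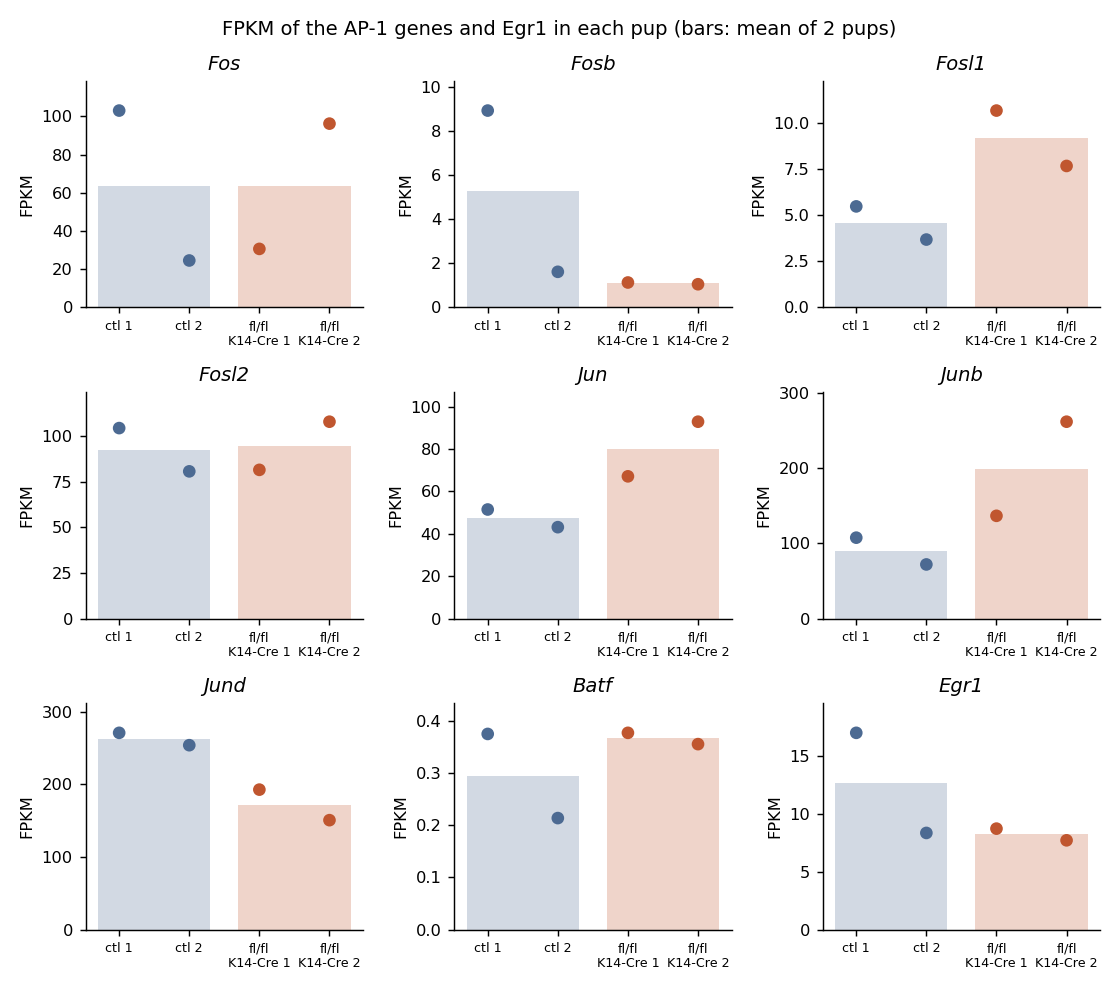
FPKM of each of the 9 genes (vertical axes, linear from 0, a separate scale for each gene) in the 2 control pups (blue) and the 2 Skiv2l fl/fl K14-Cre (knockout) pups (orange), with bars at the mean of each genotype. Jun, Junb and Fosl1 were higher and Jund was lower in both knockout pups, whereas Fos was high in 1 pup of each genotype.

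The 250 bases before the RefSeq start sites of Fos, Fosb, Jun and Junb are shown because Jun and Junb were both called higher and because Fos and Fosb varied most between control pups. They are given on GRCm38.p6 on the strand of the gene, with motif matches in capitals.
Fos, chr12:85473640-85473889, plus strand: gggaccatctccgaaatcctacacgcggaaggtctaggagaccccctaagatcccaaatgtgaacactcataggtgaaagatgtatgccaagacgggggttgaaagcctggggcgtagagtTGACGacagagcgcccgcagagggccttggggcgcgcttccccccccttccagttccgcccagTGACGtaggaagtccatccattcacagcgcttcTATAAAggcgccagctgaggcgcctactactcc
Fosb, chr7:19310046-19310295, minus strand: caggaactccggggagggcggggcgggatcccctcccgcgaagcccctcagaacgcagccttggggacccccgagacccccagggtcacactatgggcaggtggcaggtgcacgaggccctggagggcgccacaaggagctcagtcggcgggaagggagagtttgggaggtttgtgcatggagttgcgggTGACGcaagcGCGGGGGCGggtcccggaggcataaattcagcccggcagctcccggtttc
Jun, chr4:95052223-95052472, minus strand: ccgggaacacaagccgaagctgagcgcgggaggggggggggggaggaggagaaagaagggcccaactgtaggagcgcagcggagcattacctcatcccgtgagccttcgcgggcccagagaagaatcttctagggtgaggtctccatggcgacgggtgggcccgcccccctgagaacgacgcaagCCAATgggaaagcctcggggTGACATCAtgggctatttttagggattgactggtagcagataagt
Junb, chr8:84978749-84978998, minus strand: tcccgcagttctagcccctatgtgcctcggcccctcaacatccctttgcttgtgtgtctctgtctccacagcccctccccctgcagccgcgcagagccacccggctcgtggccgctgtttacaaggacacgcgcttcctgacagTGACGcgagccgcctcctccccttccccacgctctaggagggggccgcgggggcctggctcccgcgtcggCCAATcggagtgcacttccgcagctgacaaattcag

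The motifs searched on both strands were the AP-1 element TGANTCA, the CRE-type element TGACNTCA, its shorter form TGACG, the EGR element GCGNGGGCG, the CArG box of serum response factor, CCAAT and TATAAA. A TGACNTCA match also holds TGACG where its middle base is G. Counting back from the start site, Jun held a TGACNTCA match whose first base was at -45, and 7.49% of 32851 promoter windows of the same length held one. Junb held TGACG at -106 and CCAAT at -36, and Jun held CCAAT at -65, against 17.8% of windows for TGACG and 33.8% for CCAAT. Fos held TGACG at -129 and -66 and TATAAA at -33, the last found in 12.4% of windows. Fosb held TGACG at -60 and the EGR element at -50, the latter found in 4.70% of windows. None of the 4 windows held TGANTCA or a CArG box, found in 6.75% and 1.47% of windows, and nothing about binding follows from a match or its absence. The start sites of Fos and Jun were those of the deposited tables, and those of Fosb and Junb lay 6 and 30 bases from them.

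Jund (ENSMUSG00000071076.6, chr8:70698949-70700616, plus strand), which encodes a Jun protein known for steady expression and, in several cell types, for restraining growth, was the most abundant member in 3 of 4 pups. Control pups had 270.8 and 253.8 FPKM and knockout pups 192.7 and 150.7, so both of the latter lay below both controls. It was lower by a log2 fold change of -0.62 (SE 0.13, limma adjusted p = 0.0155). Under median scaling it was -0.41 with an adjusted p of 0.0562, and the call was also lost without control pup 1 (-0.57, adjusted p = 0.116) or pup 2 (-0.67, adjusted p = 0.0902). An antisense gene, Gm11175, overlaps Jund, 45.9% of the 75-base stretches of Jund occur in another gene, and whether reads were counted by strand was not given. Gm11175 was at 4.38, 3.57, 2.22 and 1.02 FPKM in the same order of pups, far below Jund and also lower in both knockout pups.

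Junb (ENSMUSG00000052837.6, chr8:84974484-84978718, minus strand) encodes a Jun protein whose loss in mouse epidermis is known to cause skin inflammation. Its FPKM was 107.4 and 71.9 in control pups and 136.4 and 261.3 in knockout pups, so that the groups were separate but the second knockout pup stood 1.92 times above the first. Junb had the largest rise among the members, at a log2 fold change of 1.10 (SE 0.32, limma adjusted p = 0.0435). The call was lost under quantile normalization (1.04, adjusted p = 0.0548), without control pup 1 (1.38, adjusted p = 0.1015) or pup 2 (0.81, adjusted p = 0.236), and without knockout pup 2 (0.63, adjusted p = 0.117). Prdx2, a peroxiredoxin gene on the other strand with exons that overlap Junb, moved the other way, from 133.5 and 136.1 FPKM to 93.0 and 105.9. Of the 75-base stretches of Junb, 4.74% occur in another gene.

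Jun (ENSMUSG00000052684.4, chr4:95049034-95052222, minus strand) encodes c-Jun, an activator of keratinocyte proliferation that acts in part through the EGF receptor. Its FPKM rose from 51.4 and 43.1 in control pups to 67.1 and 92.8 in knockout pups, with no overlap. The rise was 0.73 on the log2 scale (SE 0.17, limma adjusted p = 0.0207), and it lost the call without control pup 1 (0.86, adjusted p = 0.0835) or pup 2 (0.61, adjusted p = 0.143). The antisense gene Junos, with exons that overlap Jun, was at 4.50, 4.08, 6.02 and 5.07 FPKM. Of the 75-base stretches of Jun, 5.07% occur in another gene.

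Fosl1 (ENSMUSG00000024912.5, chr19:5447703-5455945, plus strand) encodes Fra-1, a Fos protein without a transactivation domain that is known from activated and migrating keratinocytes. Its FPKM was 5.48 and 3.68 in control pups and 10.7 and 7.67 in knockout pups, and the groups did not overlap. On the log2 scale the rise was 0.87 (SE 0.21, limma adjusted p = 0.0231). Without control pup 1 it was 1.10 (adjusted p = 0.0610), without pup 2 it was 0.63 (adjusted p = 0.146), and without knockout pup 1 it was 0.66 (adjusted p = 0.0799). Exons of Ccdc85b on the other strand overlap Fosl1, and 50.2% of the 75-base stretches of Fosl1 were shared. Ccdc85b was at 13.8 and 13.3 FPKM in control and 11.1 and 8.42 in knockout pups, the opposite direction to Fosl1.

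Fosl2 (ENSMUSG00000029135.10, chr5:32135801-32157842, plus strand), which encodes Fra-2, had the log2 fold change nearest 0 among the tested members, although the mean FPKM of Fos differed less. Its FPKM was 104.4 and 80.7 in control pups and 81.5 and 107.9 in knockout pups, so the genotypes overlapped fully. Its log2 fold change was 0.03 (SE 0.17, limma adjusted p = 0.901), and its 95% interval ran from -0.39 to 0.45.

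Fos (ENSMUSG00000021250.13, chr12:85473890-85477273, plus strand) encodes c-Fos, the classic immediate early AP-1 subunit. Its FPKM was 103.1 and 24.6 in control pups and 30.7 and 96.3 in knockout pups. Thus 1 pup of each genotype was high and the other low, 4.19 times apart in controls and 3.14 times apart in knockout pups. The log2 fold change of 0.10 (SE 0.74, limma adjusted p = 0.924) had a 95% interval from -1.71 to 1.92. That interval takes in changes of several-fold in either direction, so these 4 pups do not settle whether Fos changed.

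Fosb (ENSMUSG00000003545.3, chr7:19302696-19310051, minus strand) encodes a further immediate early Fos protein. Its FPKM was 8.92 in control pup 1, 1.62 in pup 2, and 1.13 and 1.05 in the knockout pups. Both knockout pups were below both controls, and the width of the control group came from pup 1. Between genotypes the log2 fold change was -1.28 (SE 0.56), with a limma adjusted p of 0.1225, and without control pup 2 it was -2.25 (adjusted p = 0.0128), against -0.32 without control pup 1. With the replicate number as a block it was called, at an adjusted p of 0.0283, although the numbers were not given as a pairing of pups.

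Egr1 (ENSMUSG00000038418.7, chr18:34859823-34864984, plus strand), which binds GC-rich elements and answers to the same kinases as Fos, showed a pattern like that of Fosb at higher level. Its FPKM was 17.02 and 8.37 in control pups and 8.74 and 7.73 in knockout pups, with overlap. The genotypes differed by a log2 fold change of -0.49 (SE 0.29, limma adjusted p = 0.219), and without control pup 2 it was -0.97 (adjusted p = 0.0381), against -0.023 without control pup 1.

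Batf (ENSMUSG00000034266.6, chr12:85686669-85709087, plus strand), best known from lymphocytes, was at 0.375 and 0.214 FPKM in control pups and at 0.377 and 0.355 in knockout pups. It did not reach the minimum of 0.5, and in the fit without that minimum its log2 fold change was 0.08 (SE 0.08, limma adjusted p = 0.605). Its mean read depth per base was 0.910 to 1.55, against 893.7 to 1648 for Jund.

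**Figure D2:**
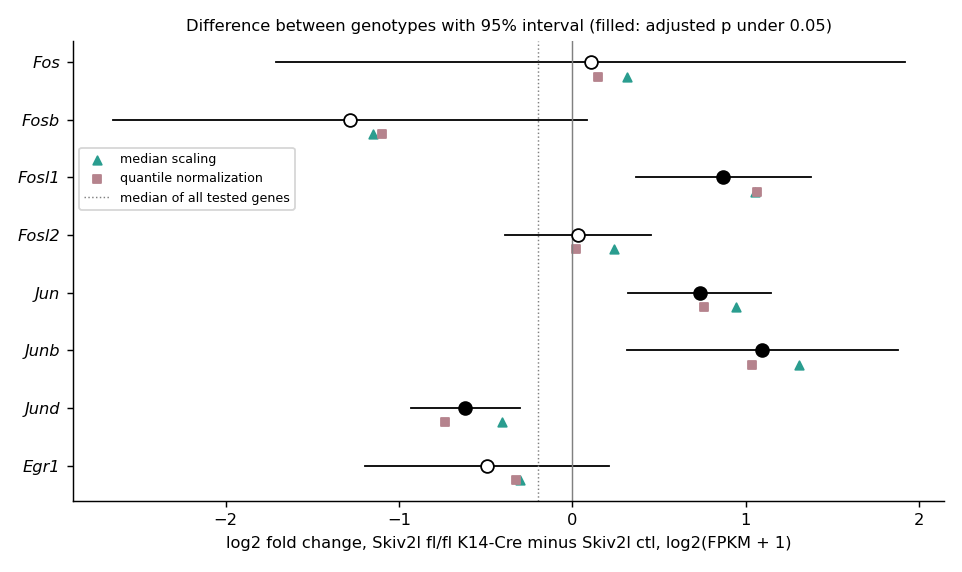
Difference between genotypes for the 8 tested genes on the log2(FPKM + 1) scale (circles with 95% intervals from limma, filled where the adjusted p was under 0.05), with the values after median scaling (triangles) and quantile normalization (squares). Jun, Junb and Fosl1 lie right of 0 and Jund left of 0, and the widest interval is that of Fos, from -1.71 to 1.92.

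Because FPKM is per transcript length, the 7 Fos and Jun genes can be set side by side within a pup. Their summed FPKM was 651.5 and 479.4 in control pups and 520.2 and 717.7 in knockout pups, so the total overlapped between genotypes. Jund held 41.6% and 53.0% of the sum in control pups and 37.0% and 21% in knockout pups. Junb held 16.5% and 15.0% in control pups and 26.2% and 36.4% in knockout pups, and the share of Jun went from 7.90% and 8.99% to 12.9% and 12.9%. For each of these 3 shares the genotypes were separate, with an exact two-sided permutation p of 0.333, the smallest that 2 against 2 pups can give. The shares of Fosb, Fosl1 and Fosl2 were also separate at that p, and that of Fos overlapped. Fosl2 held 16.0% and 16.8% in control and 15.7% and 15.0% in knockout pups, although its log2 fold change was 0.03. Shares of the same sum do not move independently. Leaving out 1 library moved the difference in share between -10.2 and -26.3 percentage points for Jund, 10.5 and 20.7 for Junb and 3.92 and 5.02 for Jun, and the lowest size for Jund and Junb was without knockout pup 2. The Jun family as a whole held 65.9% and 76.9% in control pups and 76.2% and 70.3% in knockout pups, with overlap.

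The ratio of Junb to Jund FPKM was 0.397 and 0.283 in control pups and 0.708 and 1.73 in knockout pups. Junb thus exceeded Jund in 1 pup, knockout pup 2, in which Junb was the most abundant member. The ratio of Jun to Jund was 0.190 and 0.170 in control pups and 0.348 and 0.616 in knockout pups. Among the Fos genes, Fosl1 stood to Fosl2 as 0.0525 and 0.0456 in control pups and as 0.131 and 0.0711 in knockout pups, so Fosl2 remained the more abundant Fra transcript in every pup. Such ratios within a pup do not depend on the scaling of the library, and they show unequal change, not which gene moved.

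**Figure D3:**
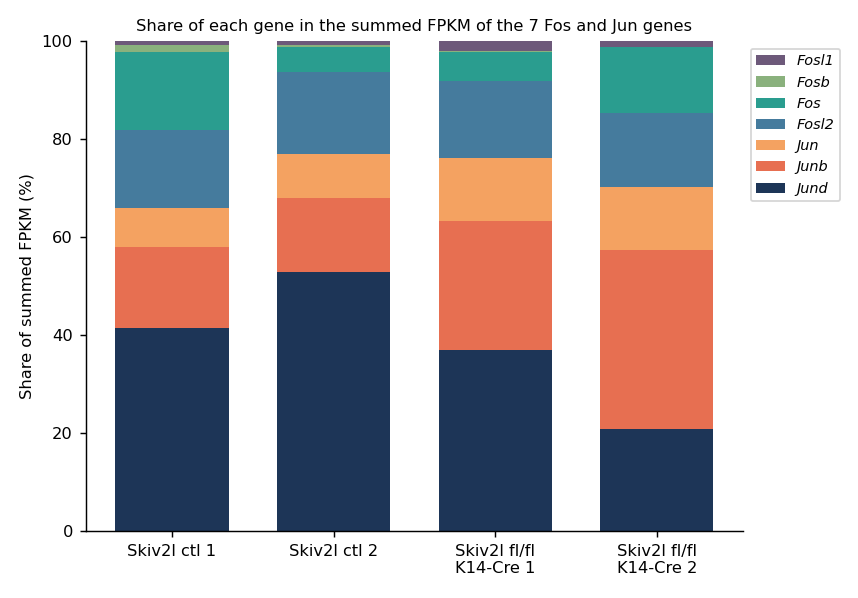
Share of each of the 7 Fos and Jun genes in their summed FPKM (vertical axis, percent) in each of the 4 pups (stacked bars). The share of Jund was 41.6% and 53.0% in control and 37.0% and 21% in knockout pups, while the shares of Junb and Jun were larger in both knockout pups.

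The spread between pups of 1 genotype differed greatly among members. On the log2(FPKM + 1) scale, Fos was 2.02 higher in control pup 1 than in pup 2 and 1.62 higher in knockout pup 2 than in pup 1, ranking 19 and 26 by size of difference among the 13609 tested genes. Dusp1, a phosphatase gene induced together with Fos, behaved alike, with differences of 1.91 and 1.76 that ranked 23 and 18, and its FPKM was 44.5, 11.1, 35.4 and 122.4. Within each genotype, both genes were thus higher in the same pup.

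Fosb and Egr1 were high in control pup 1 alone, by 1.92 and 0.94, while the knockout pups differed by -0.06 and -0.16 (pup 2 minus pup 1). Klf2, a zinc finger gene of the immediate early list, and Atf3, a stress-induced bZIP gene, were also highest in control pup 1. Klf2 was at 12.2 FPKM there and at 1.75, 1.77 and 2.03 in the others, and Atf3 at 8.16 there and at 1.65, 4.30 and 2.18 in the others. All 8 tested members were higher in control pup 1 than in pup 2, against 6220 of the 13609 tested genes. Of 33 tested genes of the immediate early list, 25 were higher in that pup, and 6 (18.2%) exceeded pup 2 by more than 0.5, against 1.94% of all tested genes. Between the knockout pups, 4 of 8 members were higher in pup 2, against 5820 of the 13609 tested genes, and 10 of 33 listed genes (30.3%) were higher there by more than 0.5, against 2.28% of all tested genes, while 6 (18.2%) were lower there by more than 0.5, against 3.74%. The listed genes thus spread in both directions between the knockout pups. These counts are given as a description, since handling time and other conditions per pup were not given.

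**Figure D4:**
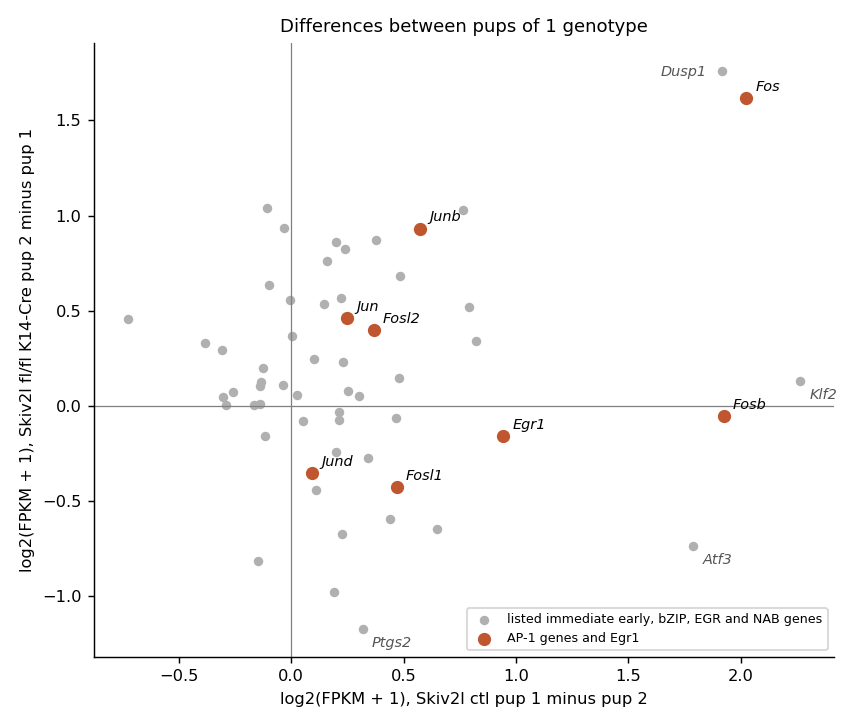
Difference in log2(FPKM + 1) between the 2 control pups (horizontal axis) and between the 2 knockout pups (vertical axis) for the 8 tested members (orange) and for the listed immediate early, bZIP, EGR and NAB genes (grey). Fos and Dusp1 lie at the upper right, high in 1 pup of each genotype, and Fosb, Egr1, Klf2 and Atf3 differ mainly between the control pups.

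The profiles over the 4 libraries nearest to those of the members with the largest rise and the largest fall were found by Euclidean distance after centring. Nearest to Junb were Ciart, a circadian repressor gene (distance 0.18), Tbx6, a T-box factor gene (0.22), and Higd1a, a mitochondrial hypoxia-induced gene (0.25). All 3 were highest in knockout pup 2, and only Tbx6 among them was called higher, with a log2 fold change of 0.97 (limma adjusted p = 0.0365). Among the genes nearest to Fosb were Snap25, which encodes a synaptic protein (distance 0.14), and Gm49383 (0.27). Snap25 was at 4.23 FPKM in control pup 1 and at 0.244, 0.156 and 0.0649 in the others. Of 11 neuronal and glial genes looked at after these values were seen, 9 were highest in control pup 1, the exceptions being Tubb3 and Mbp. The share of all tested genes highest in that pup was not counted. Both knockout pups were below both controls in 55.3% of all tested genes, so a highest value in a control pup was common. Among the 9, Nefl, Nefm and Gfap stayed below the FPKM minimum for a test in every pup. Map2 differed little, at 56.28 FPKM in control pup 1 and 55.76 in knockout pup 1. The summed FPKM of the 11 genes was 80.9 and 64.4 in control and 91.3 and 86.96 in knockout pups. Map2 made up most of each sum but not the difference. Tubb3 was at 2.04 and 2.05 in control and 19.3 and 17.85 in knockout pups. Mbp was at 11.3 and 8.495 in control and 14.1 and 15.65 in knockout pups. Map2 was at 51.3 to 56.3 in all 4 pups, and Nefm was listed at 0 in all pups but control pup 1. The part of such transcripts in the high Fosb, Egr1, Klf2 and Atf3 of control pup 1 was not tested.

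The counts of calls in the lists around AP-1 stand beside 8.99% higher and 25.4% lower over all tested genes. Of 13 tested bZIP partner genes, 3 were called higher and 1 was called lower (median log2 fold change 0.21). Maf, a large Maf factor, went from 7.79 and 8.48 FPKM to 12.5 and 26.8 (log2 fold change 1.08, limma adjusted p = 0.0408), and Cebpd and Jdp2, the latter a repressor that pairs with Jun, were higher by 0.74 (adjusted p = 0.0152) and 0.61 (adjusted p = 0.0279). Cebpa, a factor of keratinocyte differentiation, was lower by a log2 fold change of -0.42 (adjusted p = 0.0149), a call lost under median scaling (-0.20, adjusted p = 0.119). Of the 4 tested EGR and NAB genes, Egr3 was lower at -0.35 (adjusted p = 0.0310) and so was the corepressor gene Nab1 at -0.41 (adjusted p = 0.0235). Neither was called under median scaling or quantile normalization.

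Of the 33 other immediate early genes, 7 were called higher and 3 lower (median 0.21). The largest rises were in Ptgs2, the inducible cyclooxygenase gene, from 0.436 and 0.153 to 8.99 and 3.43 FPKM (log2 fold change 2.37, limma adjusted p = 0.00577), Ier3, an apoptosis-linked gene, from 10.1 and 8.65 to 32.0 and 58.9 FPKM (2.10, adjusted p = 0.00298), and Plk2, a stress-induced polo-like kinase gene, from 14.04 and 11.9 to 47.1 and 29.1 FPKM (1.45, adjusted p = 0.00523). Ptgs2 was below the FPKM minimum of 0.5 in both control pups, so it entered the test through the knockout pups alone. The 3 that were lower, Nr4a2 (-0.53, adjusted p = 0.0454), Ctgf (-0.46, adjusted p = 0.0354) and Btg2 (-0.44, adjusted p = 0.0459), were not called under median scaling or quantile normalization. Nr4a2 was at 0.683 and 1.012 FPKM in control and 0.2395 and 0.302 in knockout pups, so it entered the test through the control pups alone. Under median scaling 10 and under quantile normalization 8 of the 33 were higher. With either, 0 were lower, so the lower calls rest on the values as deposited.

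Upstream, 3 of 29 MAP kinase pathway kinases were higher and 7 lower (median -0.09), shares near those of all tested genes, 8.99% and 25.4%, and the lower count was 2 under median scaling and 4 under quantile normalization. Map2k1, which encodes the ERK kinase MEK1, went from 12.2 and 12.3 to 20.9 and 23.8 FPKM (log2 fold change 0.82, limma adjusted p = 0.00267), with smaller rises in Map3k5, which encodes ASK1 (0.43, adjusted p = 0.0216), and Mapk3, which encodes ERK1 (0.34, adjusted p = 0.0309). The p38 kinase kinase gene Map2k6 (-0.81, adjusted p = 0.00883) and the JNK gene Mapk9 (-0.53, adjusted p = 0.0268) were among those lower, and Mapk9 was not called under median scaling or quantile normalization. Among 15 feedback inhibitors of the pathway, 4 were higher and 1 lower (median 0.00). The phosphatase genes Dusp5 (15.1 and 10.6 to 41.4 and 40.1 FPKM, adjusted p = 0.00132), Dusp14 (83.5 and 79.4 to 142.7 and 143.8 FPKM, adjusted p = 0.00123) and Dusp7 (108.3 and 91.3 to 169.4 and 161.0 FPKM, adjusted p = 0.00451) rose. Spred2, an inhibitor of ERK signalling, was lower (-0.73, adjusted p = 0.00407), whereas Spred3 of the same list was higher (0.71, adjusted p = 0.0118). Dusp1, the phosphatase gene that varied with Fos, was not called (log2 fold change 1.52, adjusted p = 0.1585).

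Of the 10 SRF, TCF and MEF2 factor genes, whose proteins bind the Fos, Egr1 and Jun promoters, 1 was higher and 5 lower (median -0.36), beside 25.4% lower over all tested genes, and the lower count was 2 under median scaling and 2 under quantile normalization. Elk3, which encodes a ternary complex factor, went from 1.65 and 2.32 to 7.18 and 7.06 FPKM (log2 fold change 1.45, limma adjusted p = 0.00132). Mef2a (-0.74, adjusted p = 0.00216), Mef2c (-0.69, adjusted p = 0.0157) and Elk1 (-0.55, adjusted p = 0.0140) were lower, the last not called under median scaling or quantile normalization. Of 7 tested genes for proteins that bind AU-rich elements, the decay signals of many immediate early mRNAs, Tia1 alone was called, lower at -0.55 (adjusted p = 0.00948).

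Downstream, 8 of 18 tested genes known as AP-1 targets in epidermis were higher and 1 was lower (median log2 fold change 0.93). The calprotectin genes S100a8 and S100a9 and the cornified envelope gene Sprr1b had the largest rises, at 8.81 (adjusted p = 1.459e-05), 8.76 (adjusted p = 1.16e-05) and 4.21 (adjusted p = 2.753e-05) on the log2 scale with limma. Lor, which encodes the envelope protein loricrin, was lower, at 828.2 and 867.5 FPKM in control and 447.8 and 444.2 in knockout pups. The list was drawn up with results of these samples known, so its count is no independent evidence of direction.

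**Figure D5:**
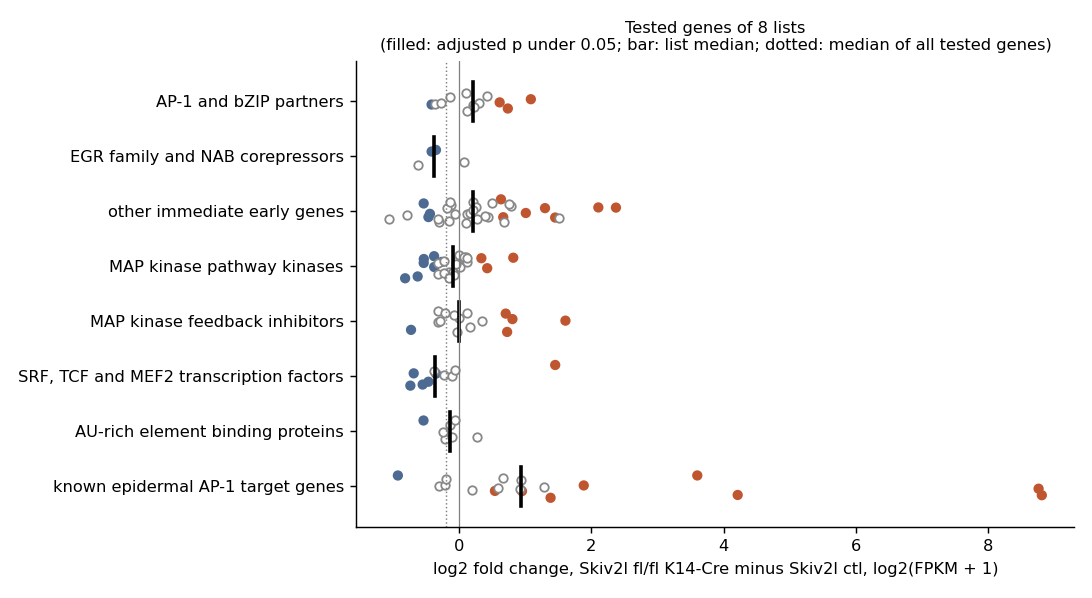
Log2 fold change between genotypes (horizontal axis) of the tested genes of 8 lists around AP-1 (rows), filled where called higher (orange) or lower (blue), with a bar at each list's median and a dotted line at the median of all tested genes, -0.20. The list of AP-1 targets has the highest median, 0.93, and that of the EGR and NAB genes the lowest, -0.38.

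The targeted gene, Skiv2l, was at 19.3 and 19.1 FPKM in control and 10.9 and 8.56 in knockout pups (log2 fold change -0.92, limma adjusted p = 0.00368), matching the labelled deletion in direction. Depth, read as coverage divided by FPKM, came to 5.84 to 6.27 aligned gigabases per library. All 10 keratinocyte markers were expressed, with summed FPKM from 27430 to 30890. Of the 10, 4 were called higher and 1 lower, beside 8.99% higher and 25.4% lower over all tested genes. Krt14 was higher 4.14 times in mean FPKM, Dsg3 4.99 times, Sfn 1.80 times and Dsp 1.63 times, and Krt1 was at 0.704 times the control mean. Their part in the higher Jun, Junb and Fosl1 was not tested. Summed FPKM of 16 leukocyte markers was 38.0 and 50.8 in control and 26.8 and 24.3 in knockout pups. Ly6g and Elane were at 0 in all pups, and 3 of 9 tested markers were lower, near the 25.4% of all tested genes. Summed FPKM of 8 dermal fibroblast markers was 177.6 and 190.7 against 107.2 and 110.1 (4 of 7 tested lower). Most of that sum came from Dcn, Fn1 and Sparc. Col1a1 and Col3a1 overlapped between genotypes, and Pdgfra was above both controls in both knockout pups without a call. Summed FPKM of 5 erythroid markers was 133.7 and 124.9 against 62.0 and 80.7 (4 of 5 lower). Of 6 tested melanocyte markers, Tyrp1 was higher, and 1 of 5 endothelial markers and none of 6 muscle markers reached the FPKM minimum for a test. Jund was lower, like the leukocyte, fibroblast and erythroid sums and 25.4% of all tested genes, while Jun, Junb and Fosl1 were higher. The part of cell composition in either was not tested. In bulk epidermis, fewer cells of a type and less RNA per cell cannot be told apart.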

How the data were processed

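Per the labels, epidermis of 4 pups at postnatal day 0 was profiled, 2 per genotype, and the numbers 1 and 2 name different animals. The FPKM and TPM values were deposited by the authors, 1 table per pup, already scaled for transcript length and library. In the same tables the authors gave a coverage signal, the read depth averaged over the bases of a gene. The submitters' processing notes name genome build GRCm38. The aligner, strandedness and read length are not given in the sources used here. FPKM was summed per gene identifier, and coding genes and exons were taken from GENCODE M21. The genes with FPKM above 0.5 in at least 1 of 4 libraries were tested with limma 3.58.1 in R 4.3.3 (lmFit, eBayes with a trend) on log2(FPKM + 1), with two-sided p-values adjusted by Benjamini-Hochberg across 13609 genes. This scale understates changes of low genes. The script was tested on simulated data. Shares were compared with an exact permutation test (scipy 1.17.1). Depth is in gigabases only, so no counting interval is given.

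The members and gene lists were chosen with earlier results of these data known. Named genes are the 9 members, Skiv2l, genes with overlapping exons, up to 3 called genes per list and direction with the largest change, and the 3 nearest profiles to the members with the largest rise and fall. Some genes that meet this rule are not reported here. Dusp1, Klf2, Atf3, Spred3 and the neuronal and glial genes were named after their values were seen. Promoter windows for 7 of 9 members were matched by symbol in RefSeq (GRCm38.p6). Fosl1 and Egr1 had no entry. Alternatives were a pseudocount of 0.1, FPKM above 1 in at least 2 libraries, no filter, TPM, median scaling, quantile normalization, no trend, all annotated genes, the replicate number as a block and leaving out each library.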

Additional observations from a re-analysis of the deposited data

How the results depend on the processing

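The number of pups limits every value, and the limma p-values rest on the spread between these 4 pups, shared in part across genes. Where 1 library was left out, the lone sample was assumed to vary like the others. Members called higher numbered 3 and called lower 1. With no filter on low values both counts were 0, and Fosl1 (0.87, adjusted p = 0.186), Jun (0.73, adjusted p = 0.179), Junb (1.10, adjusted p = 0.276) and Jund (-0.62, adjusted p = 0.1415) lost their limma calls with 21921 genes in the test. Under median scaling 0 members were lower, since Jund was at -0.41 (adjusted p = 0.0562). Junb lost its call under quantile normalization (1.04, adjusted p = 0.0548), without a trend (1.10, adjusted p = 0.0608) and with all annotated genes (1.10, adjusted p = 0.0593). Fosl2 turned to -0.017 with TPM. Leaving out 1 library gave 0 to 2 members higher and 0 to 2 lower. Ranges without 1 library were -0.91 to 1.12 for Fos, -2.25 to -0.32 for Fosb, 0.63 to 1.10 for Fosl1, -0.17 to 0.23 for Fosl2, 0.50 to 0.96 for Jun, 0.63 to 1.56 for Junb, -0.79 to -0.44 for Jund and -0.97 to -0.023 for Egr1. Fos reversed to -0.91 without Skiv2l ctl pup 2 and -0.71 without Skiv2l fl/fl K14-Cre pup 2, and Fosl2 to -0.15 and -0.17 without the same pups. Among the 13609 tested genes, 1223 were called higher and 3455 lower. These counts were 475 and 927 with no filter, 1894 and 1623 under median scaling, 1683 and 1917 under quantile normalization, and 497 to 1146 and 805 to 3135 without 1 library. Of the listed pathway genes, 26 were higher and 21 lower, and the lower count was 7 under median scaling and 10 under quantile normalization. The cause of these changes was not tested. Shares of the Fos and Jun sum kept their direction under every setting tried, other than Fos, whose difference of -0.83 percentage points was 4.52 without Skiv2l ctl pup 1 and 2.93 without Skiv2l fl/fl K14-Cre pup 1. That of Fosb went from -0.671 to -0.155 and -1.19 without Skiv2l ctl pups 1 and 2, that of Fosl2 from -1.08 to -0.668 without Skiv2l ctl pup 2, that of Fosl1 from 0.756 to 0.264 and 1.25 without Skiv2l fl/fl K14-Cre pups 1 and 2, and those of Jund from -18.2 to -10.2 and Junb from 15.6 to 10.5 without Skiv2l fl/fl K14-Cre pup 2. Deviations of same-numbered pups correlated at -0.08 across genes. With 2 pups per genotype this cannot decide whether same-numbered pups shared a litter or day, which was not given. With the replicate block, 2 members were lower, Fosb among them (-1.28, adjusted p = 0.0283), with no other member's call changed.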
